A study of Mus musculus with 9 samples.

Results

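The integrated stress response genes described here were *Atf4*, *Atf5*, *Ddit3*, *Cebpb*, *Trib3*, *Nupr1*, *Asns*, *Slc3a2*, *Chac1* and *Sesn2*. They were chosen by name as the transcription factor ATF4 and genes of its pathway. All 10 were found among the 55471 genes of the count table, and all 10 passed the filter on low counts in each comparison.

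Polyadenylated RNA was sequenced from embryoid bodies (EBs), aggregates in which mouse embryonic stem cells (ESCs) leave pluripotency and begin to form the embryonic lineages. The ESCs were of the E14 line. Drops of 1000 cells hung for 3 days to form EBs, and the EBs then differentiated for 3 days on gelatin. There were 3 groups of 3 libraries each.

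The wild-type (WT) EBs came from the parental line and were untreated. The *Tnfaip2*-/- EBs, also without added lipids, came from 1 CRISPR-Cas9 clone with a frameshift and premature stop in the *Tnfaip2* gene. The genotype and the clone therefore cannot be told apart. A figure legend of the study gives these EBs a vehicle control, which the sample titles do not name, and they are called untreated here. The third group was made from the same clone, with 8 µM palmitic acid and 8 µM palmitoyl-L-carnitine (PA/PC) in the medium. By the study's methods the lipids were present both while EBs formed and while they differentiated, and the treated EBs formed in the differentiation (MEF) medium, whereas untreated EBs formed in ES cell medium. PA/PC and the medium of EB formation therefore cannot be told apart. No treated WT library was analysed here, and every group was grown with added nonessential amino acids. Library totals lay between 27362913 and 28914312 counts. *Tnfaip2* itself had 6 to 16 counts in WT libraries, 5 to 8 in untreated and 14 to 25 in treated *Tnfaip2*-/- libraries, too few to check the genotype labels. Markers of pluripotency and of the 3 germ layers were detected in every library, as the EB label says.

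In the integrated stress response, kinases that sense amino acid shortage, misfolded protein in the endoplasmic reticulum (ER), heme shortage or double-stranded RNA phosphorylate the translation initiation factor eIF2. General translation slows, while the mRNAs of *Atf4*, *Atf5* and *Ddit3* are translated better through their upstream open reading frames. ATF4 then binds, often as a dimer with a C/EBP protein, to C/EBP-ATF response elements and raises transcription of genes for amino acid supply, tRNA charging and stress survival. ATF4 protein is thus set largely at translation, which mRNA counts do not measure.

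The core of the C/EBP-ATF response element was searched as TGATGNAA on both strands (TTNCATCA on the other strand) in RefSeq promoter windows of mouse build GRCm38.p6, which run from 250 bases before a gene's start to 50 after it. All 10 genes matched, with 11 windows, since *Atf5* has a pair. Upstream of the RefSeq start the core was found in 3 of these 11 windows (27.3%), against 3.45% of all 32851 windows. The 10 genes were chosen as genes of the ATF4 pathway, so the higher share is no test of them. The windows with the core were those of *Asns*, *Chac1* and *Nupr1*, shown on each gene's own strand with the core in capitals. The *Asns* stretch is chr6:7693210-7693272 (minus strand) with the core starting at base -23, the *Chac1* stretch chr2:119351009-119351096 (plus strand, -193, reverse orientation) and the *Nupr1* stretch chr7:126625533-126625620 (minus strand, -110, reverse orientation).
Asns: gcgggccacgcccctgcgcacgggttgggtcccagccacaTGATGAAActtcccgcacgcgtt
Chac1: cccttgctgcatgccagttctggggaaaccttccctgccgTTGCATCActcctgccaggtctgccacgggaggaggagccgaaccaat
Nupr1: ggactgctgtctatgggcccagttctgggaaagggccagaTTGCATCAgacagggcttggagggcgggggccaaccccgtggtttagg
*Trib3* had the core 15 bases after its RefSeq start, outside the upstream stretch. The gene spans given below come from another annotation, GENCODE, whose starts differ for these genes. By those spans the cores of *Asns* and *Nupr1* lie inside the gene and that of *Trib3* lies upstream of it. Which genes carry the core upstream thus depends on the annotation. By the same search the core was upstream in 3 of 9 windows for the tRNA charging genes and 5 of 18 for the other stress targets described below. It was in 1 of 9 windows for the amino acid synthesis genes, 1 of 8 for the transporters and 1 of 7 for the other ATF and C/EBP family genes. For the eIF2 control and ER chaperone genes it was in 0 of 13 and 0 of 12 windows. Some genes of these lists had no window. In the same order, windows were found for 9 of 13, 12 of 13, 8 of 10, 5 of 8, 7 of 9, 12 of 16 and 12 of 15 genes. A match of letters is a description and not evidence of binding.

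The first comparison asked how EBs without *Tnfaip2* differed from WT EBs. In *Tnfaip2*-/- EBs, 9 of the 10 genes were lower than in WT EBs at an adjusted p under 0.05 in edgeR, where 37.1% of the 17355 genes tested were lower. The falls ranged from 1.24-fold for *Asns* to 4.11-fold for *Atf5*. None was higher (0 also at an unadjusted p under 0.05 and in DESeq2), while 36.8% of all genes tested were higher. *Cebpb* was the gene that did not pass. At least a 2-fold fall was seen for 5 of the 10, *Atf5*, *Chac1*, *Trib3*, *Nupr1* and *Ddit3*, against 6.90% of all genes tested. The median log2 fold change of the 10 genes was -1.01, and that of all genes tested was -0.01.

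The second comparison set PA/PC-treated against untreated *Tnfaip2*-/- EBs. Here 9 of the 10 genes were lower in treated than in untreated *Tnfaip2*-/- EBs, where 42.2% of the 17167 genes tested were lower, and 1, *Slc3a2*, was higher, where 39.6% were higher. The call for *Slc3a2* was lost and its direction turned when libraries were scaled by their totals. At least a 2-fold fall was seen for 6 of the 10, *Nupr1*, *Atf4*, *Asns*, *Chac1*, *Trib3* and *Cebpb*, against 18.4% of all genes tested. The median log2 fold change was -1.47 for the 10 genes and -0.02 for all genes tested. DESeq2 called 8 lower, leaving out *Ddit3*.

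The third comparison set treated *Tnfaip2*-/- EBs against WT EBs. All 10 genes were lower, where 36.4% of the 16655 genes tested were lower. None was higher (0 also at an unadjusted p under 0.05 and in DESeq2), where 34.2% of all genes were higher. At least a 2-fold fall was seen for 8 of the 10, all but *Sesn2* and *Slc3a2*, against 11.4% of all genes tested. The falls reached 11.99-fold for *Nupr1* and 11.4-fold for *Chac1*. On the log2 scale the fold changes ran from -0.67 for *Slc3a2* (SE 0.028) to -3.58 for *Nupr1* (SE 0.076). The edgeR adjusted p ran from 8.17e-28 for *Atf4* to 7.43e-10 for *Cebpb*. The median log2 fold change was -2.49 for the 10 genes and -0.02 for all genes tested. Each pair of comparisons shares the libraries of 1 group, so the 3 sets of values are not independent of one another.

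Levels are given per library, in the order of replicates 1 to 3, as counts scaled to a library total of 1000000 (CPM). Fold changes and their standard errors (SE) come from edgeR after TMM scaling, which assumes that most genes do not differ. In the second comparison 3120 of the 17167 genes tested were not called. Scaling by totals moved the middle of all fold changes by -0.17 (log2) in the second comparison and by -0.17 in the third. It changed the split of all genes tested from 7246 lower and 6801 higher to 8684 and 5317 in the second, and from 6067 and 5693 to 8341 and 3616 in the third, while the 10 genes had 9 and 10 lower and 0 higher (0 also at an unadjusted p under 0.05 in edgeR). In bulk EBs, fewer cells that express a gene and less RNA per cell cannot be told apart.

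**Figure D1:**
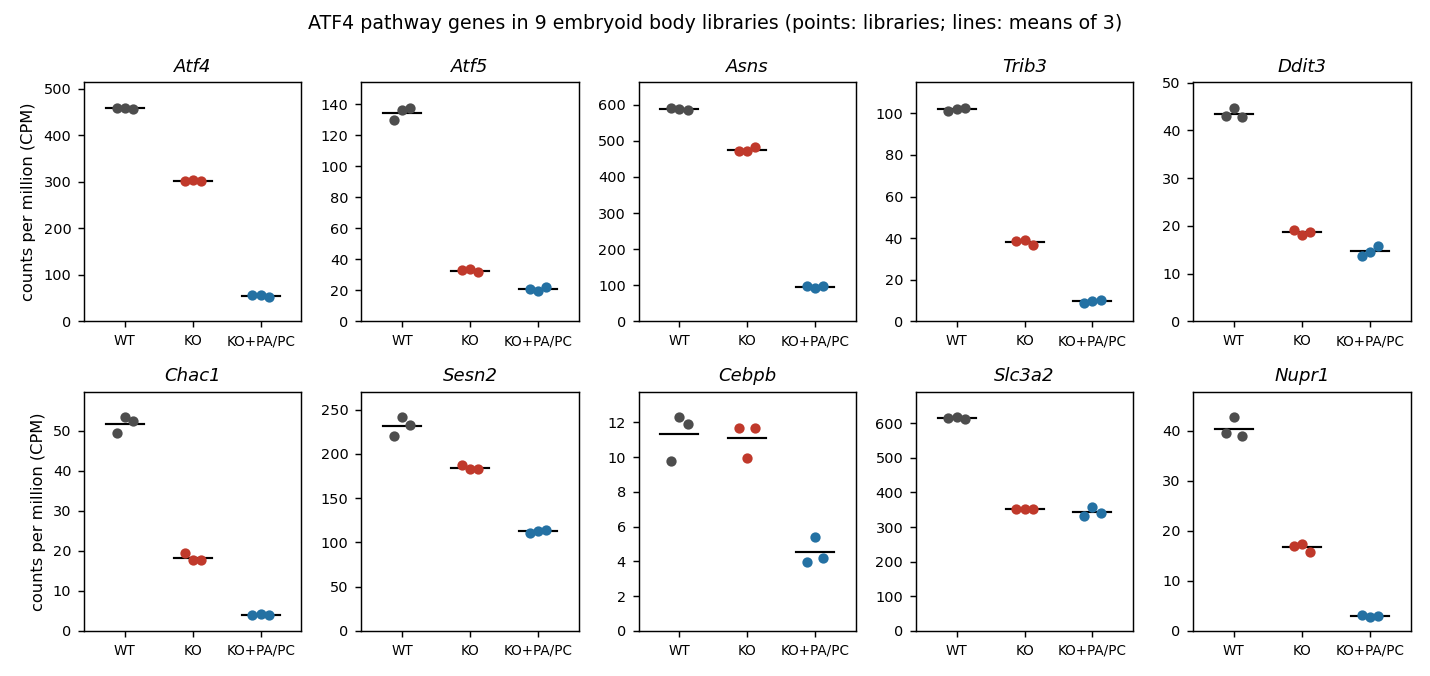
Levels in CPM (vertical axes, each from 0) for the 10 genes in WT, *Tnfaip2*-/- (KO) and PA/PC-treated *Tnfaip2*-/- EBs (KO+PA/PC); points are libraries and lines are means of 3. *Atf4* steps down from 458 to 303 to 55.4 CPM on average, *Atf5* makes most of its fall between WT and KO, and *Cebpb* and *Slc3a2* each overlap between 1 pair of neighbouring groups.

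The transcription factors come first. *Atf4* (chr15:80255184-80257541, build GRCm38), the activator of the pathway, was at 459, 459 and 457 CPM in WT libraries, at 302, 304 and 302 in *Tnfaip2*-/- libraries and at 56.6, 56.5 and 52.9 in treated libraries. The groups did not overlap, and the libraries of each lay close together beside the distances between groups. Its log2 fold change was -0.60 (SE 0.022, adjusted p = 1.28e-22) in *Tnfaip2*-/- against WT and -2.28 (SE 0.031, adjusted p = 1.83e-37) in treated against untreated *Tnfaip2*-/- EBs. Against WT the treated EBs held 13.5% of the *Atf4* mRNA, a 7.39-fold fall.

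*Atf5* (chr7:44812256-44816658) encodes a related factor that is likewise controlled at translation and is linked to the stress response of mitochondria. It was at 130, 136 and 138 CPM in WT libraries, at 32.9, 33.5 and 31.9 in *Tnfaip2*-/- libraries and at 20.8, 19.6 and 22.1 in treated libraries. The drop between the WT and *Tnfaip2*-/- libraries was wide and that between untreated and treated libraries narrow, with no overlap at either. The log2 fold changes were -2.04 (SE 0.036, adjusted p = 1.15e-31) and -0.48 (SE 0.052, adjusted p = 1.31e-10). Only 1.22% of all genes tested had a lower fold change than *Atf5* in the first comparison, against 29.5% in the second. *Atf4* stood the other way around, with 15.3% of genes lower in the first and 7.54% in the second.

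*Ddit3* (chr10:127290774-127296288) encodes CHOP, a C/EBP-type factor that acts in cell death under lasting ER stress. It was at 42.9, 44.7 and 42.8 CPM in WT libraries, at 19.2, 18.2 and 18.6 in *Tnfaip2*-/- libraries and at 13.6, 14.6 and 15.9 in treated libraries. WT libraries lay far above the rest, while the highest treated library came close to the lowest untreated one. The log2 fold change was -1.22 (SE 0.047, adjusted p = 7.86e-22) in the first comparison. In the second it was -0.18 (SE 0.063, adjusted p = 0.00916), a call that DESeq2 did not make (adjusted p = 0.0917) and that was lost without treated replicate 1 (log2 fold change -0.12, adjusted p = 0.0948). Exons of other entries overlap 10.9% of the exon bases of *Ddit3*. They are another same-strand entry also named *Ddit3* and the opposite-strand genes *Gm4189* and *Mars*, and the library kit does not keep strand. The values given are those of the entry at the position above only.

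*Cebpb* (chr2:167688915-167690418), a C/EBP factor that can pair with ATF4, was the lowest of the 10 in WT EBs per exon length (26.6 TPM). It was at 9.77, 12.3 and 11.9 CPM in WT libraries, at 11.7, 9.96 and 11.7 in *Tnfaip2*-/- libraries and at 3.96, 5.41 and 4.20 in treated libraries. The WT and untreated *Tnfaip2*-/- libraries overlapped fully, and the treated libraries lay below all of them. The log2 fold change was -0.03 (SE 0.080, adjusted p = 0.767) in the first comparison and -1.13 (SE 0.099, adjusted p = 8.01e-13) in the second. The opposite-strand gene *Tmem189* overlaps 20.7% of the *Cebpb* exon bases, and by the counting the study describes, reads that overlap several genes were not counted.

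*Trib3* and *Nupr1* are stress-induced regulators downstream of ATF4. *Trib3* (chr2:152337422-152344032) encodes a pseudokinase that binds ATF4 and CHOP and dampens them. It was at 101, 102 and 103 CPM in WT libraries, at 38.5, 39.1 and 36.6 in *Tnfaip2*-/- libraries and at 9.11, 9.72 and 10.1 in treated libraries. The 3 groups were far apart, with libraries tightly placed within each. The log2 fold changes were -1.42 (SE 0.035, adjusted p = 2.38e-27) and -1.82 (SE 0.059, adjusted p = 9.31e-26), and the treated EBs held 10.6% of the WT level.

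*Nupr1* (chr7:126623249-126630861) encodes a small chromatin-associated stress protein. It was at 39.5, 42.7 and 38.9 CPM in WT libraries, at 16.9, 17.4 and 15.8 in *Tnfaip2*-/- libraries and at 3.17, 2.85 and 2.98 in treated libraries. Each step took the gene well below the range of the group before. The log2 fold changes were -1.27 (SE 0.052, adjusted p = 3.70e-21) and -2.31 (SE 0.090, adjusted p = 2.66e-23). Against WT, treated EBs held 8.34% of the *Nupr1* mRNA, the lowest share among the 10 genes.

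*Asns* and *Slc3a2* serve amino acid supply. *Asns* (chr6:7675169-7693254), the enzyme that makes asparagine and a classical ATF4 target, was at 591, 587 and 585 CPM in WT libraries, at 472, 473 and 482 in *Tnfaip2*-/- libraries and at 97.3, 93.6 and 97.6 in treated libraries. The untreated *Tnfaip2*-/- libraries lay a little below WT without overlap, and the treated libraries far below both. The log2 fold changes were -0.30 (SE 0.021, adjusted p = 4.77e-15) and -2.14 (SE 0.028, adjusted p = 4.69e-38).

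*Slc3a2* (chr19:8706882-8723369), the heavy chain shared by several amino acid exchangers, took another course. It was at 614, 617 and 613 CPM in WT libraries, at 353, 351 and 353 in *Tnfaip2*-/- libraries and at 332, 358 and 341 in treated libraries. All WT libraries were above the rest, and the treated libraries spread around the untreated ones. In the first comparison the log2 fold change was -0.80 (SE 0.021, adjusted p = 1.10e-26). In the second it was 0.13 (SE 0.027, adjusted p = 3.91e-05) with TMM scaling and -0.04 (adjusted p = 0.191) with scaling by totals, so its direction under PA/PC depended on the scaling.

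*Chac1* and *Sesn2* act in redox balance and growth control. *Chac1* (chr2:119351229-119354381), whose enzyme breaks down glutathione, was at 49.5, 53.4 and 52.4 CPM in WT libraries, at 19.5, 17.8 and 17.6 in *Tnfaip2*-/- libraries and at 4.07, 4.17 and 3.95 in treated libraries. No library of one group came near another group. The log2 fold changes were -1.50 (SE 0.049, adjusted p = 5.20e-24) and -2.01 (SE 0.082, adjusted p = 1.50e-22), and treated EBs held 8.80% of the WT level.

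*Sesn2* (chr4:132492032-132510501) encodes a leucine-binding stress protein that restrains the growth kinase mTORC1. It was at 220, 241 and 233 CPM in WT libraries, at 187, 182 and 183 in *Tnfaip2*-/- libraries and at 110, 113 and 114 in treated libraries. Its groups did not overlap, but its falls were small beside those of *Chac1*, *Trib3* and *Nupr1*. The log2 fold changes were -0.33 (SE 0.028, adjusted p = 2.25e-12) and -0.54 (SE 0.029, adjusted p = 5.77e-19).

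**Figure D2:**
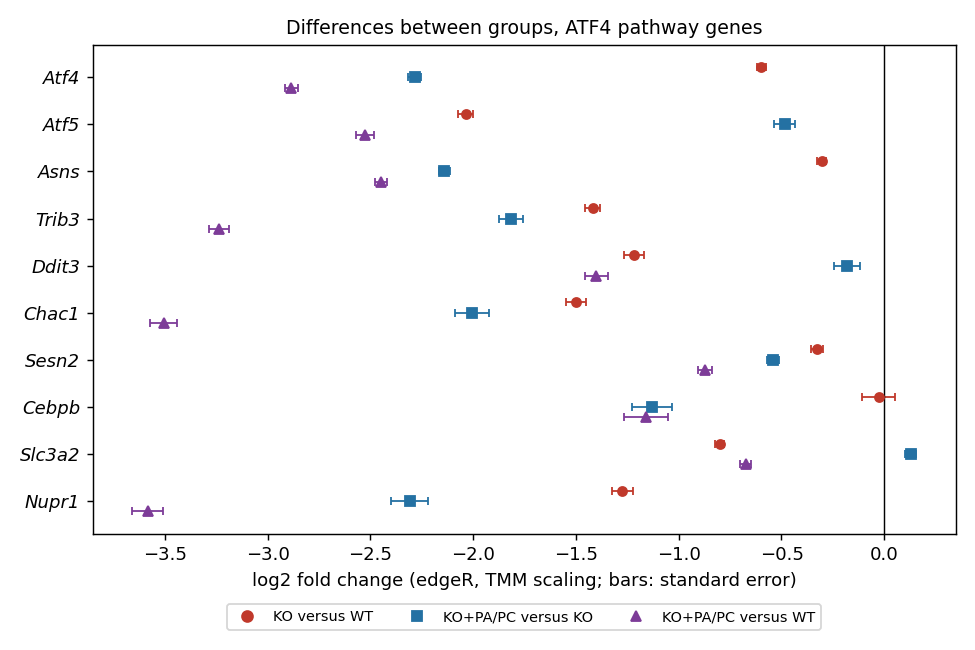
Log2 fold changes (horizontal axis, edgeR with TMM scaling) of the 10 genes in the 3 comparisons; points are estimates from 3 against 3 libraries and bars are standard errors. *Atf5* and *Ddit3* fall mostly in KO versus WT, *Atf4*, *Asns* and *Cebpb* mostly in KO+PA/PC versus KO, and *Slc3a2* lies at 0.13 in KO+PA/PC versus KO, a value that is -0.04 when libraries are scaled by their totals.

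Length-corrected levels (TPM, CPM divided by exon length and rescaled) put the genes in order within a group. In WT EBs *Asns* (757 ± 5.98 TPM, SD, n = 3), *Atf4* (685 ± 2.46) and *Slc3a2* (614 ± 2.11) led. *Atf5* (238 ± 6.61) and *Sesn2* (235 ± 10.4) did not differ beyond their spread, and *Trib3* (169 ± 0.990), *Chac1* (112 ± 4.15), *Ddit3* (89.5 ± 2.05), *Nupr1* (56.6 ± 2.75) and *Cebpb* (26.6 ± 3.12) followed. In *Tnfaip2*-/- EBs the leading genes kept this order, and *Atf5* (58.3 ± 1.36 TPM) stood below *Sesn2* (188 ± 2.203) and *Trib3* (63.5 ± 2.12). There *Chac1* (39.6 ± 2.11) and *Ddit3* (38.7 ± 1.04) did not differ beyond their spread. In treated EBs *Slc3a2* (341 ± 10.9 TPM) led, ahead of *Asns* (123 ± 3.46), *Sesn2* (113 ± 1.81) and *Atf4* (82.2 ± 3.12), and *Nupr1* (4.18 ± 0.244) was the lowest.

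Ratios within a library do not depend on the scaling between libraries. The log2 ratio of *Atf5* to *Atf4* counts was -1.77 ± 0.045 (SD, n = 3) in WT, -3.21 ± 0.034 in *Tnfaip2*-/- and -1.41 ± 0.14 in treated EBs. *Atf5* was thus lowest relative to *Atf4* in untreated *Tnfaip2*-/- EBs, with no overlap of the groups. The log2 ratio of *Trib3* to *Ddit3* was 1.23 ± 0.035, 1.03 ± 0.072 and -0.61 ± 0.040 in the same order, with the treated libraries well below the others. For *Asns* to *Atf4* it was 0.36 ± 0.0063, 0.65 ± 0.017 and 0.80 ± 0.079, a smaller range than for the other pairs.

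The falls of the 10 genes were set beside the rest of the pathway. Of all genes tested, 37.1% were lower and 36.8% higher in *Tnfaip2*-/- than in WT EBs. Under PA/PC 42.2% were lower and 39.6% higher. The upstream list of eIF2 kinases and eIF2 control held 16 genes, of which 5 were lower and 6 higher in *Tnfaip2*-/- than in WT EBs, with a median log2 fold change of 0.03. *Eif2ak3*, the ER stress kinase PERK, rose (log2 fold change 0.56), and *Gcn1* (-0.47), a partner of the amino acid sensing kinase, and *Ppp1r15b* (-0.43), a subunit of the eIF2 phosphatase, fell. Under PA/PC 6 were lower and 9 higher than in untreated *Tnfaip2*-/- EBs, with *Eif2ak3* falling (-0.77) and *Impact* (0.67), an inhibitor of that sensing kinase, and *Eif2s1* (0.46), an eIF2 subunit, rising. With scaling by totals 7 were lower and 4 higher.

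Amino acid supply genes largely fell in *Tnfaip2*-/- EBs, where 37.1% of all genes tested were lower and 36.8% higher than in WT. All 10 listed synthesis genes were lower than in WT (median log2 fold change -0.96), among them *Psat1* of serine synthesis (-1.03), *Shmt2* of mitochondrial glycine and folate metabolism (-1.003) and *Gpt2*, a mitochondrial transaminase (-1.16). Of 8 amino acid transporters 6 were lower and 1 higher (median -0.83), with *Slc7a5* at -1.06 and *Slc1a4* at -1.08. The 13 tRNA charging genes were all lower (median -0.51), led by *Iars* (-1.03).

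Under PA/PC the same lists held falls and rises, where 42.2% of all genes tested were lower and 39.6% higher. Of the synthesis genes 7 were lower and 2 higher than in untreated *Tnfaip2*-/- EBs (median log2 fold change -0.51). *Shmt2* rose (0.73) while *Pycr1* of proline synthesis (-0.96) and *Mthfd2* (-0.66) fell. The transporters had 6 lower and 1 higher (median -0.38), with *Slc7a1*, a carrier of arginine and lysine, at -1.68. Of the tRNA charging genes 6 were lower and 5 higher (median -0.04), and *Cars* fell most clearly (-1.19). With scaling by totals 9 were lower and 3 higher.

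*Slc7a5* is the light chain that pairs with *Slc3a2* to form the LAT1 transporter. The log2 ratio of *Slc7a5* to *Slc3a2* counts was 0.01 ± 0.032 (SD, n = 3) in WT, -0.25 ± 0.036 in *Tnfaip2*-/- and -0.68 ± 0.038 in treated EBs. The light chain was thus lowest relative to the heavy chain in treated libraries, and the groups did not overlap.

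Among 13 other stress targets of ATF4, 10 were lower and 2 higher in *Tnfaip2*-/- than in WT EBs (median log2 fold change -0.62). Of all genes tested 37.1% were lower and 36.8% higher there. *Ddit4*, an mTORC1 inhibitor, was at -1.82, *Stc2*, a secreted glycoprotein, at -3.31 and *Vldlr*, a lipoprotein receptor, at -3.31. These 3 genes, which also respond to hypoxia, rose under PA/PC, by log2 fold changes of 2.75, 2.67 and 2.49, while all 10 genes described above but *Slc3a2* fell. *Ddit4* went from 582 ± 21.7 CPM in WT to 165 ± 6.33 in *Tnfaip2*-/- and 984 ± 44.1 in treated EBs (SD, n = 3). Under PA/PC 7 of 12 tested were lower and 5 higher, where 42.2% of all genes tested were lower and 39.6% higher. *Gdf15*, a stress cytokine, and *Jdp2*, an AP-1 family repressor, fell in treated EBs against WT (log2 fold changes -2.69 and -4.01). In that comparison 11 of the 12 were lower, where 36.4% of all genes tested were lower.

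Most ER chaperones and genes of the XBP1 and ATF6 arms of the unfolded protein response were higher in *Tnfaip2*-/- EBs. Of 15, 10 were higher and 1 lower than in WT (median log2 fold change 0.21), where 36.8% of all genes tested were higher and 37.1% lower. DESeq2 called 8 higher and 1 lower. Only 1 of the 15, *Xbp1*, rose at least 2-fold, from 105 ± 1.71 to 215 ± 4.22 CPM (SD, n = 3). Under PA/PC, where 42.2% of all genes tested were lower and 39.6% higher, 11 of the 15 were lower and 3 higher than in untreated *Tnfaip2*-/- EBs (median -0.41). *Xbp1* was at -1.80 and *Creld2* at -0.91. With scaling by totals 13 were lower and 0 higher in edgeR (0 also at an unadjusted p under 0.05), while DESeq2 with its own size factors gave 10 lower and 3 higher. Of the 9 other ATF and C/EBP family genes 5 were lower and 3 higher in *Tnfaip2*-/- than in WT EBs, with *Atf3* at -1.26, and 3 were lower and 4 higher under PA/PC, with *Atf6* at -0.92 (5 lower and 2 higher with scaling by totals).

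**Figure D3:**
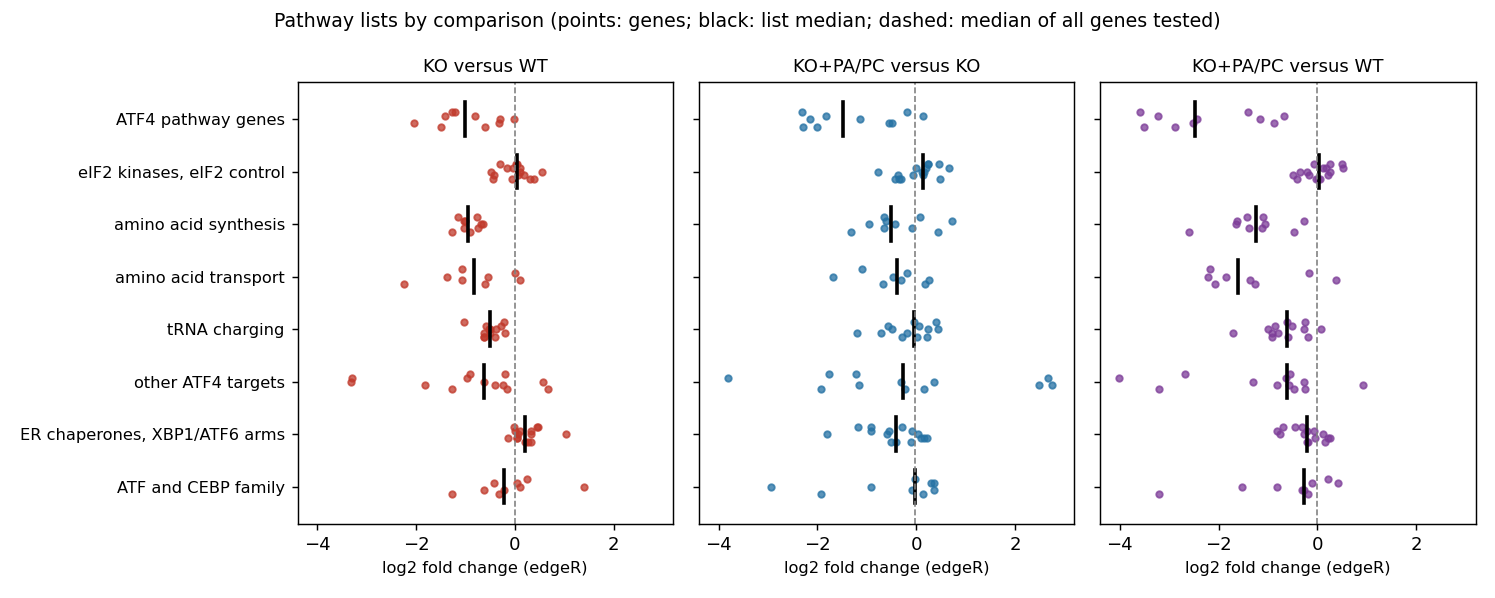
Log2 fold changes (horizontal axis, edgeR) of the genes of 8 lists in the 3 comparisons; points are genes, black bars list medians and dashed lines the median of all genes tested. The 10 genes of the top row have medians of -1.01, -1.47 and -2.49, while eIF2 kinases and eIF2 control genes lie around 0, with medians of 0.03, 0.13 and 0.03.

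Markers of cell types moved with the group as well. Of all genes tested, 37.1% were lower and 36.8% higher in *Tnfaip2*-/- than in WT EBs. The shares were 42.2% and 39.6% under PA/PC, and 36.4% and 34.2% in treated against WT EBs. Summed over the 10 genes, levels were 2256 to 2295 CPM in WT, 1446 to 1453 in *Tnfaip2*-/- and 651 to 677 in treated libraries. The 10 endoderm markers summed to 1545 to 1637, 857 to 868 and 193 to 195 CPM. *Sparc* (mean 714 CPM in WT) and *Col4a1* (500) made up the larger part of this sum. Of the 10 markers 8 were lower and 2, *Afp* and *Ttr*, higher in *Tnfaip2*-/- than in WT EBs. All 10 were lower in treated than in untreated *Tnfaip2*-/- EBs. None of the endoderm markers was at 0 in any library. Pluripotency markers summed to 3364 to 3440, 5013 to 5059 and 3358 to 3449 CPM. The near-equal WT and treated sums hid opposite moves, with 7 of the 12 lower and 5 higher in treated than in WT EBs. *Tfcp2l1* was at 37.1% and *Tdgf1* at 191% of WT there. Mesoderm markers summed to 51.6 to 55.7, 65.3 to 71.0 and 54.9 to 57.9 CPM, and ectoderm markers to 437 to 441, 333 to 337 and 598 to 605. Of the 8 ectoderm markers 5 were lower and 3 higher in *Tnfaip2*-/- than in WT EBs. Members of the mesoderm list moved in opposite directions, with 3 lower and 3 higher of 7 tested in *Tnfaip2*-/- against WT EBs and 3 lower and 4 higher under PA/PC. *T* averaged 1.91, 0.292 and 15.5 CPM in the 3 groups while *Bmp4* averaged 11.2, 31.95 and 5.13. The part of the endoderm cells in the falls of the 10 genes was not tested.

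**Figure D4:**
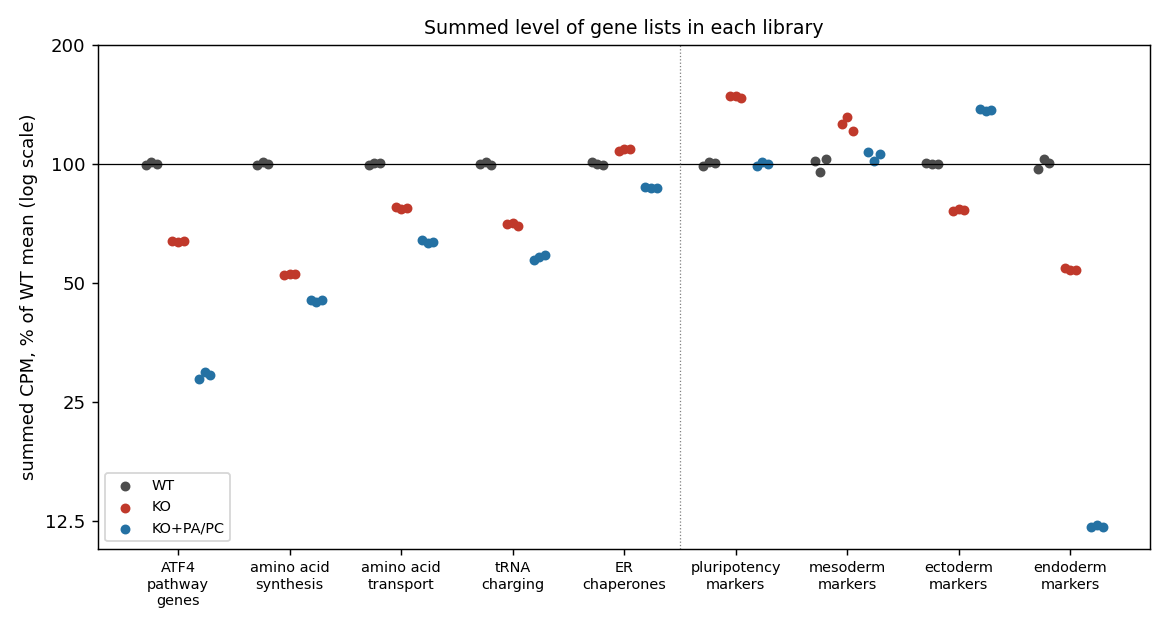
Summed CPM of gene lists in each library as a percentage of the WT mean (vertical axis, log scale); points are libraries, pathway lists stand left of the dotted line and cell type markers right of it. The 10 ATF4 pathway genes lie at 63.7% of WT in KO and 29.2% in KO+PA/PC, and the endoderm markers at 54.0% and 12.1%.

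The genes with the profile most like that of *Atf4* were sought over the 9 libraries, by the root-mean-square difference of centred log2 CPM, among the 9790 genes that averaged 10 CPM or more. They were *Myo7a* (difference 0.089), *Dab2* (0.11), *Ctsh* (0.13), *Clic6* (0.15) and *Ildr1* (0.18). *Dab2* is on the endoderm marker list and went from 116 to 86.4 and 13.4 CPM. *Cebpb* averaged less than 10 CPM and was not compared. Among the rest of the 10 genes the nearest to *Atf4* was *Asns* (0.19), with 5 genes of the table nearer. The next were *Nupr1* (0.32, with 27 genes nearer), *Trib3* (0.34, 30) and *Chac1* (0.38, 38). Farther off were *Atf5* (0.78, 269), *Ddit3* (0.89, 471), *Sesn2* (0.89, 479) and *Slc3a2* (1.09, 1621). The points share 9 libraries in 3 groups, so likeness over them is a description.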

How the data were processed

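Poly(A) libraries were made with a kit that does not keep strand. Per the labels, the authors used bcl2fastq 2.20.0.422, STAR 2.7.2b on GRCm38 and featureCounts 1.6.5, and deposited 1 table of raw counts per gene, 9 columns, with 0 columns left unused. The study's methods describe another aligner for WT and untreated *Tnfaip2*-/- libraries, so which run made the table is uncertain. Symbols and positions came from GENCODE mouse release 21.

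The 10 genes and all lists were chosen with earlier results of these data known. From each other list, at most 3 genes per comparison were named, those with the smallest adjusted p at a mean of at least 10 CPM; some genes so named, such as *Vldlr*, are also given in another comparison. Genes were tested in edgeR 4.0.16 (quasi-likelihood, TMM, filterByExpr, 2 groups per fit) with Benjamini-Hochberg adjustment over all genes. The procedure was also run on counts simulated for the first comparison, with far fewer genes changed than were called here. That run cannot show how the scaling behaves when so many genes change. Alternatives were DESeq2 1.42.0, other scalings and filters, a joint fit, thinning to the smallest library, a minimum fold of 2, a replicate block and leaving out each replicate. Same-numbered libraries did not deviate together (r from -0.041 to 0.063), so the numbers do not pair them. Replicates were described as biological, and every pair differed beyond sampling noise. A figure legend of the study describes those of the *Tnfaip2*-/- EBs with and without PA/PC as separate pools of EBs. The p-values therefore measure spread between libraries of the same cells and not between clones.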

Additional observations from a re-analysis of the deposited data

How the results depend on the processing

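Of 450 alternative values for the 10 genes, 432 kept their direction and call, 14 lost the call and 4 changed sign. When a fold change of at least 2 was itself tested, 5 of the 10 genes were called in *Tnfaip2*-/- against WT EBs, all lower. Of all 17355 genes tested there, 657 were lower and 930 higher. In treated against untreated *Tnfaip2*-/- EBs 5 of the 10 were called, all lower, where 2480 of all 17167 genes tested were lower and 1074 higher. In both comparisons 0 of the 10 were higher in edgeR (0 also at an unadjusted p under 0.05). Scaling by library totals also left 0 of the 10 higher in treated against untreated *Tnfaip2*-/- EBs. With that scaling the log2 fold changes turned negative there for *Slc3a2* (-0.037), *Gcn1* (-0.043), *Gpt2* (-0.097), *Gars* (-0.102) and *Atf6b* (-0.020). *Cebpb* in *Tnfaip2*-/- against WT EBs ranged from -0.13 to 0.044 when replicates were left out in turn, and was not called in any such fit. With the replicate block, 9, 10 and 10 genes were called in the 3 comparisons, the same counts as without it. Of 1620 values for other named genes, 1524 kept their direction and call. Genotype and clone, and PA/PC and the medium of EB formation, could not be separated with these libraries. Changes of few counts, as in *Cebpb* or *Tnfaip2*, are limited by depth.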
